A study of Mus with 6 samples.

Results

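Tumor RNA was examined for genes of the immune checkpoint pathways and of regulatory T cells. The set was defined by 10 Ensembl gene IDs, and 3 of them had a row among the 15646 genes of the count table: Havcr2 (ENSMUSG00000020399.14), Tigit (ENSMUSG00000071552.5) and Cd274 (ENSMUSG00000016496.7). The other 7, Pdcd1, Ctla4, Lag3, Foxp3, Il2ra, Icos and Pdcd1lg2, are not analysed here, so nothing is said of the PD-1 and CTLA-4 receptors or of the genes that define regulatory T cells. The results cover an inhibitory receptor found on T cells and myeloid cells, an inhibitory receptor of T and NK cells, and a ligand.

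The tumors were grown from KPC1199, a mouse pancreatic ductal adenocarcinoma line, placed orthotopically, that is, in the pancreas itself. The hosts were genetically obese ob/ob mice, which lack functional leptin, or lean wild-type (WT) mice, and both groups carried the same tumor line. Each group had 3 libraries, named here by the number in their titles: obese 1, 3 and 4 and lean 1, 2 and 3. The labels give no age, sex, treatment or time after implantation and do not say whether a library is 1 mouse or a pool, so the p-values speak only of variation among these libraries, part of which may be technical. The comparison addresses whether the RNA of the tumor tissue, tumor and host cells together, differs when the line grows in an obese host. All obese hosts were ob/ob and all lean hosts WT, so obesity and the loss of leptin cannot be told apart.

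Checkpoint receptors sit on activated or chronically stimulated lymphocytes and dampen their response when they meet ligands on tumor, myeloid or stromal cells. In pancreatic cancer, tumors are often poor in T cells and rich in myeloid cells, and the receptor TIM-3 is made by both. Because whole tumor tissue was sequenced, fewer cells of a type and less RNA per cell cannot be told apart.

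The libraries held 7122533 (lean 2) to 8521244 (lean 1) counts. On principal components of log2 expression, the first component (54.1% of the variance) separated the hosts, and on the second (15.0%) obese 3 lay at -37.7, far from the remaining range of -6.45 to 17.5. Values are given as CPM, counts scaled by each library's total and a TMM factor that corrects for composition (0.959 to 1.05). A level of 3 counts, roughly the one-sided 95% upper bound for a count of 0, was 0.352 to 0.426 CPM. A gene is called changed at an adjusted p under 0.05 over all 14348 genes tested.

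Of the 3 genes, Havcr2 was higher in tumors of obese hosts, and Tigit and Cd274 did not pass the test in either direction. The call for 1 of the 3 stands beside 20.8% of all genes tested that were called in either direction, 10.3% higher and 10.6% lower. The count of 0 genes lower was the same in edgeR, DESeq2 and limma-voom, and was also 0 in each at an unadjusted p under 0.05. On the lower side in edgeR, 18% of all genes tested (2577) passed that unadjusted threshold. With only 3 genes, a count of 0 is not unusual beside such shares, and the 3 tools used the same counts. The median log2 fold change was -0.17 over the 3 genes and 0.01 over all genes tested. All 3 genes passed the filter on scarce genes, and none had fewer than 19 counts in any library.

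**Figure D1:**
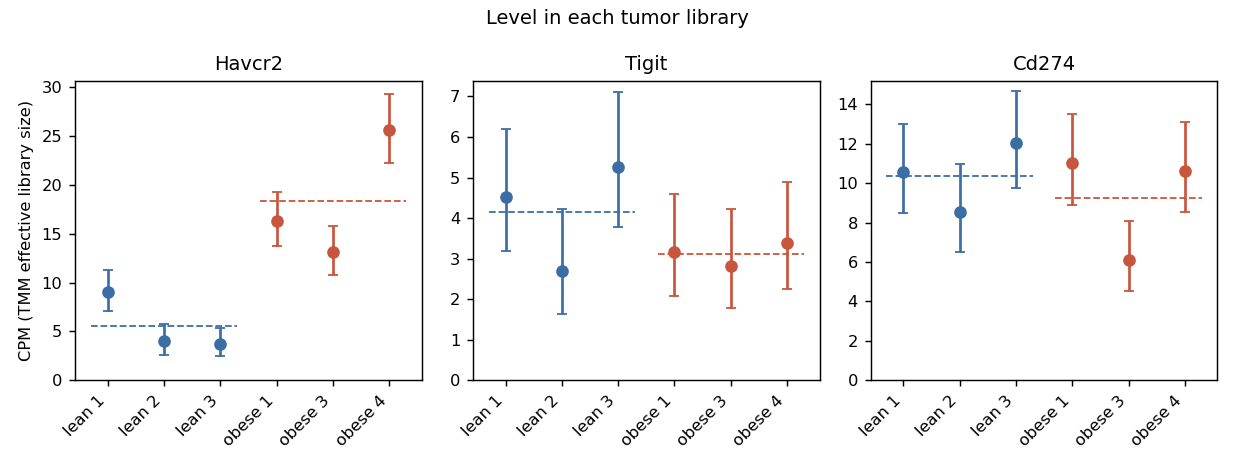
Level of Havcr2, Tigit and Cd274 in CPM (vertical axis, starting at 0, a separate scale for each gene) in each of the 3 lean (blue) and 3 obese (red) tumor libraries. Points are libraries, bars are exact 95% counting intervals and dashed lines are group means. The 3 obese libraries lie between 13.1 and 25.6 CPM for Havcr2, all above the lean ones, and the groups overlap for Tigit and Cd274.

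Havcr2 encodes TIM-3, a cell-surface receptor of the immunoglobulin superfamily that marks exhausted T cells and is also made by macrophages, dendritic cells and NK cells. In the RefSeq annotation of GRCm38.p6 it is a protein-coding gene at chr11:46454931-46481255, and 0 other annotated genes overlap this span. Its counts were 76 in lean 1, 28 in lean 2 and 30 in lean 3, against 139 in obese 1, 107 in obese 3 and 212 in obese 4. On the CPM scale these were 9.02, 3.98 and 3.75 in the lean and 16.3, 13.1 and 25.6 in the obese libraries. Every obese library was thus above every lean one, and lean 1 stood above the other lean libraries. Absence of overlap with the obese side higher was found for 20.3% of all genes tested.

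The mean Havcr2 level was 5.58 ± 2.98 CPM in lean and 18.3 ± 6.49 CPM in obese hosts (SD, n = 3 each). The fitted log2 fold change was 1.70 with an SE of 0.36 (edgeR quasi-likelihood test, adjusted p = 0.0099), a 3.25-fold difference with a 95% interval of 1.88 to 5.60. Of the genes tested, 170 (1.18%) had a higher log2 fold change. Among the 2870 genes of similar abundance, with means of 4.66 to 14.1 CPM, 30 had a higher one, and 10.6% were called higher in obese hosts.

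Havcr2 also varied widely within each group. The highest lean level was 2.40 times the lowest, and the highest obese level 1.95 times the lowest. The coefficient of variation was 53.3% in lean and 35.4% in obese hosts, where counting error alone would give 15.0% and 8.09%. The nearest libraries of the groups, lean 1 and obese 3, differed 1.45-fold, and their exact 95% counting intervals met, at 7.11 to 11.3 and 10.7 to 15.8 CPM. The call was lost without lean 2, the library with the fewest counts, where the log2 fold change was 1.51 (SE 0.40, edgeR adjusted p = 0.0525, unadjusted p = 0.00446). In that fit 1179 genes of the whole table were called, against 2991 with all 6 libraries. Without lean 1 the difference was larger, at a log2 fold change of 2.24 (edgeR adjusted p = 0.00457), and without obese 4, the highest library, it was 1.38 (edgeR adjusted p = 0.0359).

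**Figure D2:**
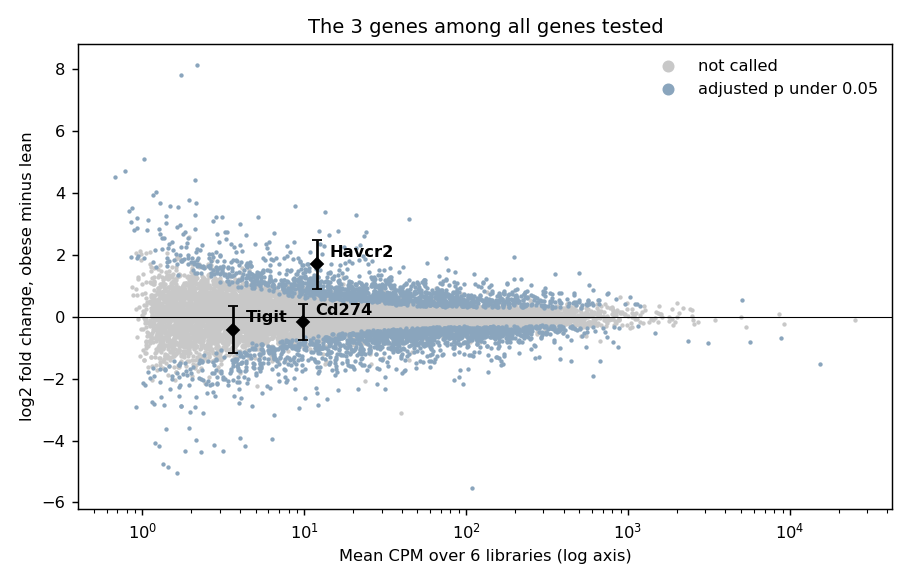
Log2 fold change of obese minus lean (vertical axis) against mean CPM over the 6 libraries (horizontal log axis) for all 14348 genes tested. Gray points were not called, blue points have an adjusted p under 0.05, and black diamonds with 95% intervals mark the 3 genes. Havcr2 lies near the upper edge of genes of its abundance, with 170 genes of the whole table above it, and the intervals of Tigit and Cd274 include 0.

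Tigit encodes an inhibitory receptor of T and NK cells, frequent on regulatory T cells, that competes with the activating receptor CD226 for ligands of the nectin family. RefSeq places it at chr16:43626137-43665125 in GRCm38.p6, and 8256 bases of this span, 21.2%, also lie within the protein-coding gene Zbtb20. The microRNA gene Mir568 lies inside the span as well. These spans include introns and come from RefSeq, whereas counts were made by Ensembl gene ID, and overlap of exons was not examined. Total RNA was sequenced, and how strands were counted is not stated in these sources. Whether reads from these genes were counted for Tigit was not tested.

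Tigit was the scarcest of the 3 genes by counts, with 38 in lean 1, 19 in lean 2 and 42 in lean 3, and 27, 23 and 28 in obese 1, 3 and 4. Its levels were 4.51, 2.70 and 5.26 CPM in the lean libraries and 3.17, 2.81 and 3.38 CPM in the obese ones. The groups overlapped through lean 2, the lowest of the 6 libraries, whereas lean 1 and lean 3 were above all obese libraries. The means were 4.16 ± 1.32 CPM in lean and 3.12 ± 0.285 CPM in obese hosts (SD, n = 3 each). The log2 fold change was -0.42 with an SE of 0.35 (edgeR quasi-likelihood test, adjusted p = 0.417). The 95% interval of the fold ran from 0.44 to 1.27, so that a 2.27-fold fall and a 1.27-fold rise both lay within its bounds.

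The obese libraries were closer to each other in Tigit than counting error alone gives on average, with a coefficient of variation of 9.15% against 19.6% from counting. In lean hosts the values were 31.7% and 17.4%. Each library's exact 95% counting interval was wide, for example 1.62 to 4.21 CPM in lean 2 and 3.79 to 7.10 CPM in lean 3. Without lean 2 the log2 fold change was -0.65 (edgeR adjusted p = 0.235), and without lean 3 it was -0.22 (edgeR adjusted p = 0.752). Among the 2869 genes of the lowest abundance, up to 4.66 CPM, to which Tigit belonged, 11.3% were called in either direction.

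Cd274 encodes PD-L1, the ligand of the receptor PD-1, which is made by tumor cells as well as by myeloid and endothelial cells and is induced by interferon gamma. It lies at chr19:29362107-29388095 in RefSeq GRCm38.p6, and the next protein-coding gene on its higher-coordinate side, 22823 bases away, is Pdcd1lg2, which encodes PD-L2, the other ligand of PD-1. The span of Cd274 shares 5186 bases (20.0%) with the protein-coding gene Plgrkt and holds the long noncoding RNA Gm36043 of 6203 bases. As for Tigit, overlap of exons was not examined, and the part of these genes in the Cd274 counts was not tested.

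The Cd274 counts were 89, 60 and 96 in lean 1, 2 and 3 and 94, 50 and 88 in obese 1, 3 and 4. The levels were 10.6, 8.52 and 12.0 CPM in the lean and 11.0, 6.12 and 10.6 CPM in the obese libraries. Obese 3 was the lowest of the 6 libraries, and the other obese libraries lay within the lean range. The means, 10.4 ± 1.76 CPM in lean and 9.25 ± 2.72 CPM in obese hosts (SD, n = 3 each), differed by less than the spread within either group.

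For Cd274 the log2 fold change was -0.17 with an SE of 0.26 (edgeR quasi-likelihood test, adjusted p = 0.686). The 95% interval of the fold, 0.597 to 1.33, leaves room for a 1.67-fold fall or a 1.33-fold rise. The direction rested on obese 3, the library that stood apart on the second component: without it the log2 fold change was 0.065 (SE 0.24, edgeR adjusted p = 0.878). The coefficient of variation was 16.9% in lean and 29.4% in obese hosts, against 11.1% and 11.4% from counting alone. Of the 3 genes, Cd274 had the smallest SE. Obese 3 was also the lowest obese library for Havcr2 and Tigit.

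Ratios of counts within a library do not depend on how libraries are scaled, so the 3 pairs of genes were compared in this way too. They are read only as a change from lean to obese hosts, since the genes differ in length. Havcr2 had 0.854, 0.467 and 0.312 counts per Cd274 count in lean 1, 2 and 3, and 1.48, 2.14 and 2.41 in obese 1, 3 and 4. All obese ratios were above all lean ones, and the mean log2 ratio was 1.98 higher in obese hosts, a 3.94-fold shift (exact permutation test, two-sided, p = 0.1, the smallest that 3 against 3 libraries allow; adjusted over the 3 pairs, p = 0.15).

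Havcr2 per Tigit count was 2, 1.47 and 0.714 in lean 1, 2 and 3, and 5.15, 4.65 and 7.57 in obese 1, 3 and 4. These ratios did not overlap either, with a 4.42-fold shift (exact permutation test, p = 0.1; adjusted p = 0.15). With 3 against 3 libraries this test cannot pass 0.05. Both ratios share the Havcr2 counts and are not independent. Havcr2 was already called higher from these same counts, so the ratios are not further evidence of its difference. How often ratios between other genes fail to overlap was not computed.

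Cd274 per Tigit count was 2.34, 3.16 and 2.29 in lean 1, 2 and 3, and 3.48, 2.17 and 3.14 in obese 1, 3 and 4. The groups overlapped, and the mean log2 ratio differed by 0.16 (exact permutation test, p = 0.7; adjusted p = 0.7). The means were 2.60 ± 0.488 in lean and 2.93 ± 0.679 in obese hosts (SD, n = 3 each).

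**Figure D3:**
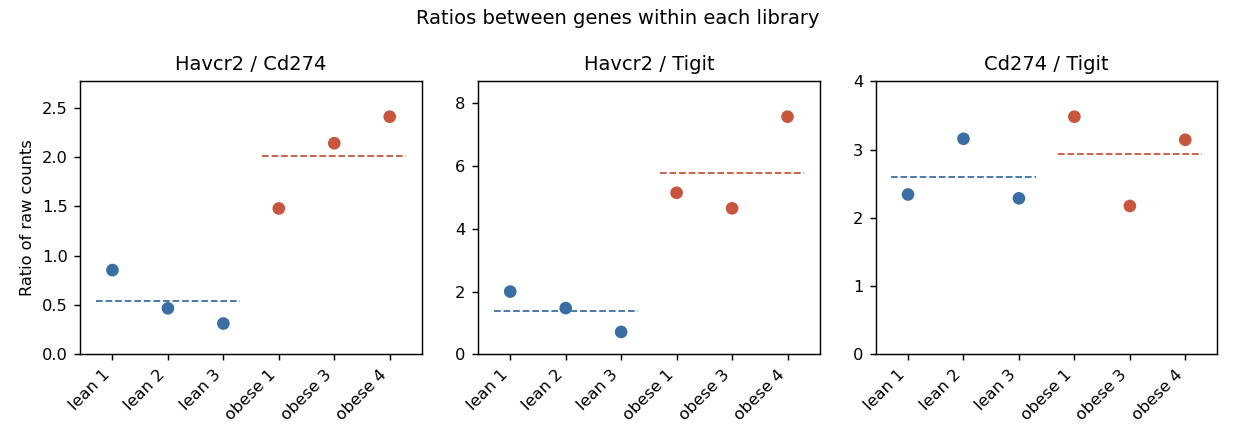
Ratios of raw counts between the genes (vertical axes, starting at 0) in each lean (blue) and obese (red) library, with group means as dashed lines. Havcr2 per Cd274 lies between 0.312 and 0.854 in lean and between 1.48 and 2.41 in obese libraries, and Cd274 per Tigit overlaps between the groups.

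Across the 15 other settings tried for each gene, Havcr2 was higher in obese hosts in all 15 and passed the threshold in 14, with fitted folds of 2.42 to 4.72. Tigit was lower in obese hosts in all 15 and passed in 0, with log2 fold changes of -0.70 to -0.22. Cd274 passed in 0 and was lower in 14. The settings reuse the same libraries, and the replicate block and the fits that leave out a library do not compare all of them.

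**Figure D4:**
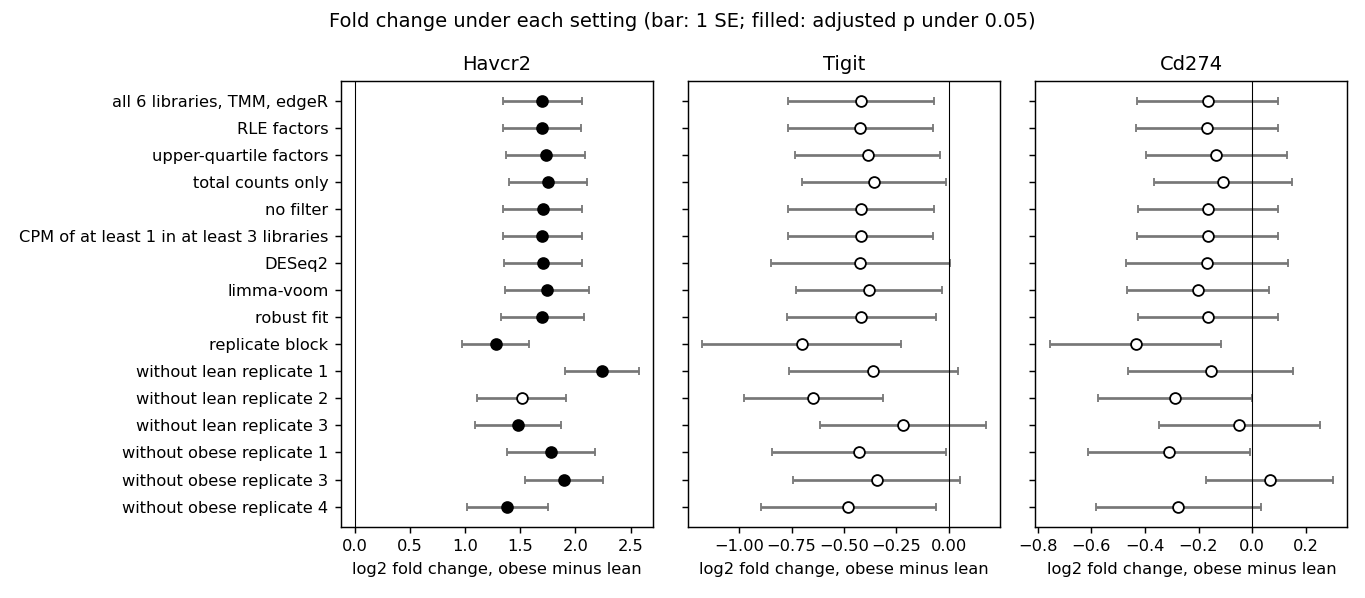
Log2 fold change of obese minus lean (horizontal axes, a separate scale for each gene) of Havcr2, Tigit and Cd274 with all 6 libraries in edgeR and under each of the 15 other settings (vertical axis). Bars are 1 SE, and filled points have an adjusted p under 0.05. The only open point of Havcr2 is the fit without lean 2, and the only positive point of Cd274 is the fit without obese 3.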

How the data were processed

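The deposited table gives raw read counts by versioned Ensembl gene ID for 6 libraries. RNA was extracted with QIAzol and depleted of ribosomal RNA, per the labels' protocols, so unspliced RNA can also be counted. The submitters' processing notes name CASAVA, STAR, Subread and the build GRCm38; their versions and settings were not given in the sources used here. No listed gene summed to fewer than 11 counts over the libraries. Titles starting with OB were taken as obese and, since the design names 2 kinds of hosts, the others (ND) as lean.

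Genes were kept by edgeR's default expression filter (minimum count 10, minimum total 15), which removed 1298 of 15646, scaled by TMM factors and compared with edgeR 4.0.16 (R 4.3.3), by a two-sided quasi-likelihood test without covariates and Benjamini-Hochberg adjustment. The SE is the size of the log2 fold change divided by the square root of F, and the 95% interval uses the t distribution of the fit. Counting intervals are exact (Clopper-Pearson) and cover counting error only. Alternatives were other scalings (RLE, upper quartile, totals alone), no filter or one on CPM (1 or more in 3 or more libraries), limma-voom (limma 3.58.1), DESeq2 1.42.0, robust estimation, a replicate block and leaving out each library.

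The members, lists and ratios were chosen with earlier results of these data known. By the rule for named genes, all members with a row are named. Their symbols came with the list of IDs, and 3 of 3 matched RefSeq GRCm38.p6 by symbol. That table pairs 0 of the listed IDs with symbols, so the 15 lists of ligands, other checkpoint and regulatory T cell genes and cell type markers could not be looked up, and the tissue was not checked against markers. Levels were not compared between genes because transcript lengths were not used here. Correlations between genes are not given, since the libraries separate by host and hold 3 each.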

Additional observations from a re-analysis of the deposited data

How the results depend on the processing

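The count of changed genes over the whole table was 2991, between 2903 and 3099 under other scalings, filters and tests, 2087 with the replicate block and 1179 to 3066 when 1 library was left out. Leaving out obese 1 gave 1461, lean 3 gave 1541, obese 4 gave 1956 and lean 2 the lowest, 1179. Without lean 1 the count was 2624, and without obese 3 it was the highest, 3066. All of these fits had 1 library fewer, and the cause of the differences between them was not tested. The number of the 3 genes called higher was 1, and 0 to 1 when 1 library was left out (0 without lean 2). The number called lower was 0 throughout. When 1 library was left out, the log2 fold change of Cd274 ranged from -0.31 to 0.065, changing sign without obese 3 alone. For Havcr2, leaving out 1 library gave 1.38 to 2.24, with edgeR adjusted p-values of 0.00434 to 0.0525, and other settings 1.27 to 1.75. The share of called genes that were higher in obese hosts was 49.3% with TMM factors and 60.6% with total counts only, with which Havcr2 was at 1.75 and Tigit and Cd274 at -0.36 and -0.11. Both groups have a library 1 and a library 3, and no label says that a number pairs them. The correlation of their deviations from their group's mean was 0.090 and 0.074, and -0.131 to 0.066 for unlike numbers. In the replicate block, lean 2 and obese 4 have no partner of the same number, so the host difference rests on libraries 1 and 3 of each group. That fit leaves few degrees of freedom. Its log2 fold change was 1.27 for Havcr2 (edgeR adjusted p = 0.00863), -0.70 for Tigit and -0.43 for Cd274. No call of the 3 genes changed, but the fit does not test the calls over all 6 libraries. Depth limits Tigit most, at 177 counts over all 6 libraries.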
